A study of Homo sapiens with 4 samples.

Results

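The genes described here are the WNT family and the genes that carry or restrain its signal: the WNT ligands, the Frizzled receptors (FZD) and their co-receptors, the secreted antagonists, the R-spondin axis, and the transducers and feedback targets around beta-catenin. The rule that picks them uses gene symbols only, and 63 of the 25690 gene rows in the table are members. Expression was measured by RNA-seq of polyA-enriched RNA in H9 human embryonic stem cells, an established line, at day 7 of a differentiation that the series title describes as non-neural ectoderm, the layer that gives rise to epidermis. There were 2 wild-type (WT) libraries and 2 libraries with the genotype label TFAP2A knockout. TFAP2A is a transcription factor of the AP-2 family. The titles of these 2 samples give TFAP2C in its place, which the genotype label and series title contradict, so these 2 are called labelled-knockout libraries here. The sources used here give no growth protocol, clone, guide or agent, and nothing in them says that replicates came from separate cultures. The p-values therefore rest on a spread between libraries that may be technical only.

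Total counts ran from 17838204 to 21797850 per library. Levels are given as CPM, counts scaled to a common library size, and 3 counts correspond to 0.137 to 0.170 CPM. All 12 markers of surface ectoderm that were looked for were at 1 CPM or more on average in both genotypes. Together they stood at 3454 and 3754 CPM in WT and at 2559 and 2467 CPM in the labelled-knockout libraries, and 8 of the 12 were lower. The 12 and the 8 include TFAP2A, the gene named in the genotype label. The background for this and the marker counts below is that 22.3% of all genes tested were lower and 21.9% higher. Of the AP-2 genes, TFAP2A was at 171 and 198 CPM in WT and at 133 and 121 CPM in the labelled-knockout libraries (adjusted p = 0.000125), so its polyA RNA was still present. TFAP2C was at 27.5 and 30.6 against 8.89 and 5.77 CPM (adjusted p = 6.66e-06), and TFAP2B at 261 and 287 against 45.7 and 40.5 CPM (adjusted p = 8.65e-12). The level of a gene's RNA does not show whether its protein was lost. Markers of some other cell types also differed between genotypes. Of 6 amnion and trophoblast markers tested, 5 were lower and 1 was higher in the labelled-knockout libraries, and their summed level was 1777 and 1920 CPM in WT against 186 and 122 CPM. Endothelial and blood markers summed to 41.4 and 43.9 against 4.51 and 5.82 CPM, with 3 of 3 tested lower and PECAM1 at 0 in all 4 libraries. Neural ectoderm markers went the other way, with 3 of 3 tested higher and sums of 6.07 and 5.76 against 14.1 and 11.6 CPM. OTX2 and HES5 were too low to test, and RAX was at 0 in all libraries. Of the mesenchyme markers 3 of 5 were lower, with sums of 1973 and 1976 against 1773 and 1859 CPM. COL1A2 and PDGFRA, which make up most of these sums, did not pass. PRRX1, POSTN and TWIST1 were 5.87-fold, 5.48-fold and 1.37-fold lower. Of the neural crest and the pluripotent markers 2 each were tested, and none passed. Mesoderm and endoderm markers had 1 of 3 tested lower and none higher. The part of these cell types in the differences described here was not tested. In bulk RNA, fewer cells of a type and less RNA per cell cannot be told apart.

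WNT proteins are secreted, lipid-modified ligands that bind a Frizzled receptor together with a co-receptor. In the branch that runs through beta-catenin, LRP5 or LRP6 is the co-receptor, the destruction complex built on axin is held back, and beta-catenin enters the nucleus, where it acts with TCF and LEF factors. Other WNTs, of which WNT5A is the textbook case, signal largely through ROR1 and ROR2 without beta-catenin. In the embryo, WNT and BMP signals pattern the ectoderm into neural, border and surface fates.

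Of the 63 members, 51 had enough counts to be tested across genotypes with edgeR's quasi-likelihood test, adjusted by the Benjamini-Hochberg method over all 15643 genes tested. In the labelled-knockout libraries 26 members were lower, against a background of 22.3% of all genes tested, and 12 were higher, against 21.9%. The 26 are 51.0% of the members tested and the 12 are 23.5%. At least 2-fold lower were 16 members (31.4%; background 6.77%), and at least 2-fold higher were 6 (11.8%; background 4.49%). The median log2 fold change, knockout over WT, was -0.41 over the tested members and 0.00 over all genes tested. The remaining 13 members tested did not pass. The count filter removed 12 members: DKK4, SFRP4, WNT1, WNT10A, WNT10B, WNT16, WNT3A, WNT7A, WNT8A, FZD10, LGR5 and LGR6. A member could enter the test through the genotype where it is high, so counts over the tested members are not counts over the family. By role, of the ligands tested 8 of 12 were lower, of the receptors 2 of 13, of the antagonists 5 of 9, of the R-spondin axis 4 of 7, and of the transducers and feedback targets 7 of 10.

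**Figure D1:**
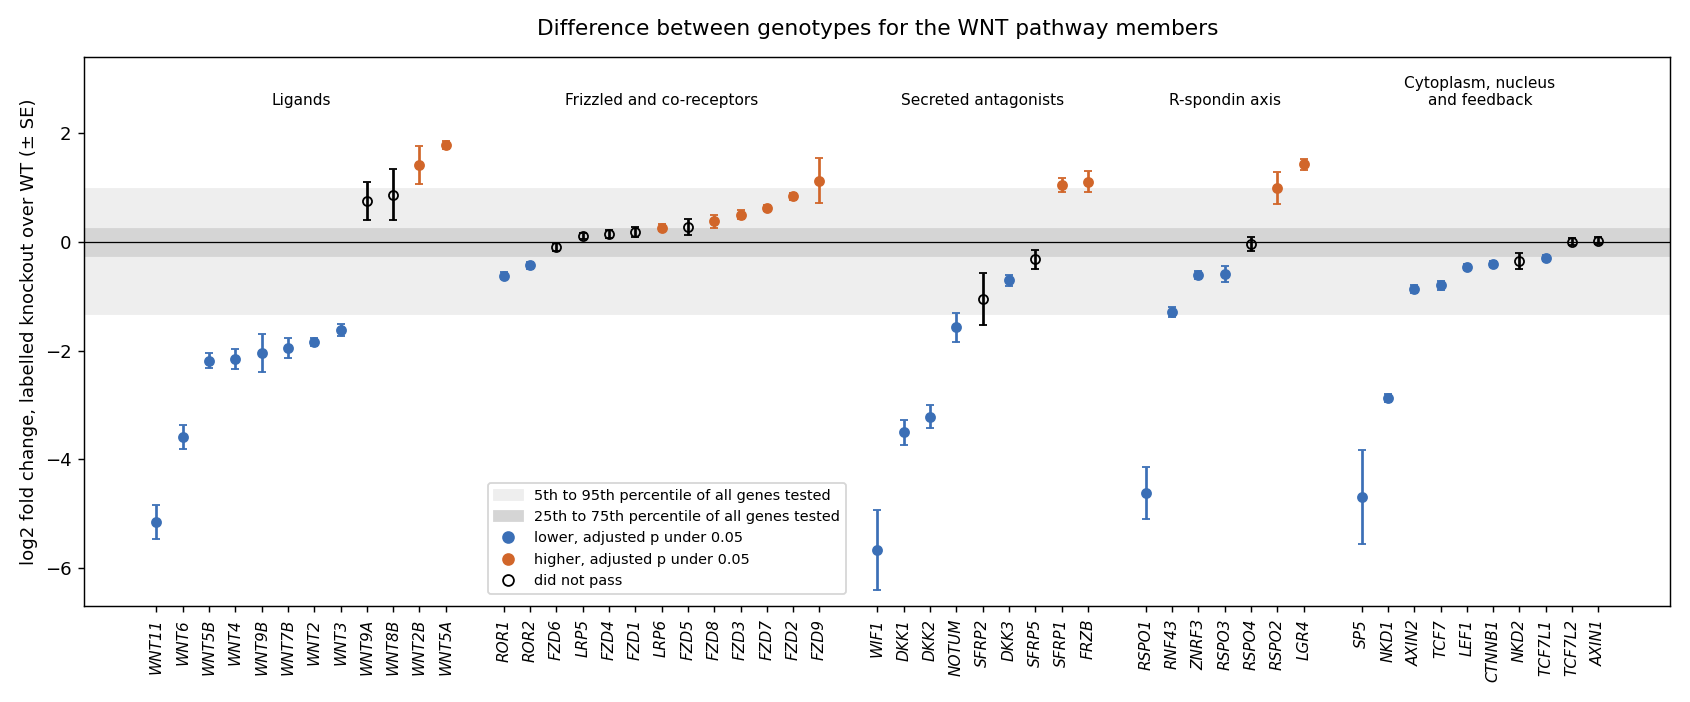
Each point is the log2 fold change of a tested member, labelled-knockout libraries over WT, with bars for its standard error, grouped by role and ordered by size; the bands show where all genes tested lie. Ligands and antagonists reach far below the bands, most receptors sit near or above 0, and no transducer or feedback target is above the bands.

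Windows of 250 bases upstream of an annotated start were found for 44 members in the RefSeq promoter table of GRCh38.p14, 53 windows in all. Members without a window could not be searched, among them AXIN2, NKD1, ZNRF3, DKK2, SFRP1, FZD2, FZD7, WNT7B and WNT11. They were searched on both strands for the TCF/LEF core, spelled CTTTGAA or CTTTGAT or CTTTGTA or CTTTGTT, and for the AP-2 letters GCCNNNGGC, which read the same on both strands. No member window held both. The TCF/LEF letters were in 12% of all 35116 windows and in 4 of the 53 member windows (7.55%), those of SP5, DKK1, TCF7 and TCF7L2. The AP-2 letters were in 19.8% of all windows and in 20 member windows (37.7%); among members with a window, 7 of 18 lower, 3 of 6 higher, 4 of 12 that did not pass and 5 of 8 not tested had them. Such a match is a description of the letters and not a measured binding site. The first 2 windows below are shown because SP5 and DKK1 are the searched members with more than 1 TCF/LEF match, which are the capitals. SP5 has 3, at 148, 109 and 84 bases before the start, and DKK1 has 2, at 95 and 76 bases. Of all windows 1.21% have at least 2 and 0.122% at least 3.
SP5, chr2:170715087-170715336, plus strand: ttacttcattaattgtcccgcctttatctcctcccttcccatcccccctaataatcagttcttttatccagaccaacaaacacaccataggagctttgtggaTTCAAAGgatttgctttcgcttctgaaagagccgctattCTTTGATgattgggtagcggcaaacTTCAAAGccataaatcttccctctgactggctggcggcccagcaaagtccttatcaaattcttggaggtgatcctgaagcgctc
DKK1, chr10:52314031-52314280, plus strand: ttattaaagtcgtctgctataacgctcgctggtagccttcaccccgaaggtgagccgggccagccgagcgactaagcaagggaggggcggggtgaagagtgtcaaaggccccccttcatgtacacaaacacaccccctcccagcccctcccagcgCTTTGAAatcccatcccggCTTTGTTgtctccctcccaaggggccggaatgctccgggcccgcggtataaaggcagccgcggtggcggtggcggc

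The other windows are shown because WNT5A and LGR4 are the ligand and the receptor gene with the most counts among members that were at least 2-fold higher in the labelled-knockout libraries, and WNT5B is the paralogue of WNT5A that went the other way. Capitals mark the AP-2 letters. WNT5A and WNT5B, each shown at 1 of its annotated starts, have 1 match each in these windows, at 172 and 137 bases before the start, and LGR4 has 3, at 133, 82 and 25 bases. Only windows that hold the letters were shown, so finding them here says nothing about direction. The other WNT5B start had no match, and the other WNT5A start had 1, at 17 bases before it.
WNT5A, upstream start, chr3:55487307-55487556, minus strand: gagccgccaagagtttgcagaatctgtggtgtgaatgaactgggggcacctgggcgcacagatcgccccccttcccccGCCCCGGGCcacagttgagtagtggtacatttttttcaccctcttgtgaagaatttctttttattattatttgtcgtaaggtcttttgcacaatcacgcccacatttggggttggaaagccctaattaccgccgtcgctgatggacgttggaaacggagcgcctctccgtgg
WNT5B, chr12:1628981-1629230, plus strand: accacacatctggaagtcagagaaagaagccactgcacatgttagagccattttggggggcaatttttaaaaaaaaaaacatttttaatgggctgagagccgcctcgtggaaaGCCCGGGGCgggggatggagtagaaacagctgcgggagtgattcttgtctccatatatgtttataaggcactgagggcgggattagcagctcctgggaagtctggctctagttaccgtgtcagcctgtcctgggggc
LGR4, chr11:27472791-27473040, minus strand: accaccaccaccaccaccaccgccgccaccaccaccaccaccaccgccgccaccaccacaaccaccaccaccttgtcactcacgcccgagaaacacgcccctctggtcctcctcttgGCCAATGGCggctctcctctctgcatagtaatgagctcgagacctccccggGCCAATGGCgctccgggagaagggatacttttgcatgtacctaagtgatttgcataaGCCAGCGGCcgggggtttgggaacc

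Most detected ligand genes fell, and WNT5A rose. WNT5A (hg19, chr3:55499743-55521670), the main ligand of ROR receptors, was at 34.8 and 38.5 CPM in WT and at 119.8 and 133 CPM in the labelled-knockout libraries. Both of the latter lie above both WT libraries, a 3.45-fold difference (log2 fold change 1.79, SE 0.07, adjusted p = 1.90e-10). Its paralogue WNT5B (chr12:1726222-1756377) was at 21.1 and 23.1 CPM in WT and at 4.56 and 5.11 CPM, 4.54-fold lower (adjusted p = 6.59e-09). These paralogues thus moved in opposite directions, and neither overlaps between genotypes. A lack of overlap is not a test here. With 2 libraries per genotype, most members that did not pass lacked it too. These were WNT8B, WNT9A, SFRP2, SFRP5, FZD1, FZD5, FZD6, LRP5 and NKD2. Only FZD4, RSPO4, AXIN1 and TCF7L2 neither passed nor lacked overlap. The share of all genes that lack overlap was not taken.

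WNT2 (chr7:116916686-116963343), a ligand of the beta-catenin branch, was the most abundant ligand in WT per kilobase of transcript, at 19.0 ± 0.65 CPM per kilobase (SD, n = 2). It was at 56.5 and 53.8 CPM in WT and at 14.7 and 15.9 CPM in the labelled-knockout libraries, 3.59-fold lower (adjusted p = 2.79e-10). WNT7B was at 12.7 and 10.9 against 3.46 and 2.68 CPM (3.86-fold lower, adjusted p = 6.21e-07). Neither WNT2 nor WNT7B overlaps between genotypes. WNT4, needed for development of the female reproductive tract and kidney, was at 9.95 and 8.68 against 2.25 and 1.92 CPM (4.46-fold lower, adjusted p = 3.75e-07).

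The largest fall among ligands was that of WNT11 (chr11:75897370-75917574), which acts largely without beta-catenin in tissue movements. The WT libraries had 116 and 135 counts of it and the labelled-knockout libraries 4 each, or 6.49 and 7.66 against 0.205 and 0.183 CPM (adjusted p = 6.84e-09). That is a log2 fold change of -5.14 with an SE of 0.31, or 35.4-fold. The levels left are near the 3 counts that a count of 0 allows. WNT6 (chr2:219724546-219738954), a ligand typical of surface ectoderm, fell from 12.5 and 9.81 CPM to 0.896 and 0.940 CPM (12.1-fold lower, adjusted p = 8.57e-09). WNT9B, known from kidney tubules and facial ectoderm, was at 2.38 and 3.29 against 0.922 and 0.435 CPM (4.12-fold lower, adjusted p = 0.000247).

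WNT3 was lower as well (log2 fold change -1.62, adjusted p = 2.46e-08), and WNT2B was higher (1.41, adjusted p = 0.00679). The call for WNT2B was lost without knockout replicate 2 (adjusted p = 0.0749). WNT8B and WNT9A did not pass, with log2 fold changes of 0.87 and 0.75 at 1.28 CPM or less in every library. WNT genes often lie in pairs on a chromosome. WNT3 and WNT9B, 32.84 kb apart, were both lower. WNT10A, 6.301 kb from WNT6, was not tested. Over both libraries it had 8.5 counts in WT and 0.5 counts in the labelled-knockout group, the same direction as WNT6. The other neighbours, WNT9A with WNT3A and WNT10B with WNT1, held no member that passed. WNT16, not tested, had 0 counts in WT and 7.5 and 2.5 in the labelled-knockout libraries. Set against 3 counts over the WT group, the 10 counts in all are 2.86-fold higher. This ratio makes no allowance for counting error in the 10.

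In CPM, the ligand level as a whole differed less than its parts. Summed over the 19 ligand genes, the level was 187 and 183 CPM in WT and 160 and 176 CPM in the labelled-knockout libraries, which lie below both WT libraries. The shares of single ligands differed by more. WNT5A took 18.6% (95% Wilson interval 17.4 to 20.003) and 21.1% (19.7 to 22.5) of all ligand counts in WT. It took 74.7% (73.2 to 76.2) and 75.8% (74.4 to 77.1) in the labelled-knockout libraries. The intervals cover counting error only. WNT2 took 30.3% and 29.4% in WT and 9.19% and 9.07% in the labelled-knockout libraries. The counts per kilobase of the longest coding transcript put WNT5A lower in each library, since its transcript is long. Summed CPM give this transcript more weight, so the small difference in the sum does not carry over to levels per kilobase. On that scale its share was 9.33% and 10.6% in WT and 59.7% and 61.7% in the labelled-knockout libraries. The order of levels per kilobase in WT was WNT2, WNT5B (9.59 ± 0.59 CPM per kilobase), WNT3 (7.66 ± 0.39), WNT6 (6.56 ± 1.13) and WNT5A (5.94 ± 0.43), and the steps from WNT3 to WNT6 and from WNT6 to WNT5A are within the summed SDs of each pair. In the labelled-knockout libraries WNT5A led at 20.5 ± 1.53 CPM per kilobase, with WNT2 next at 5.28 ± 0.29 (SD, n = 2 for each).

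**Figure D2:**
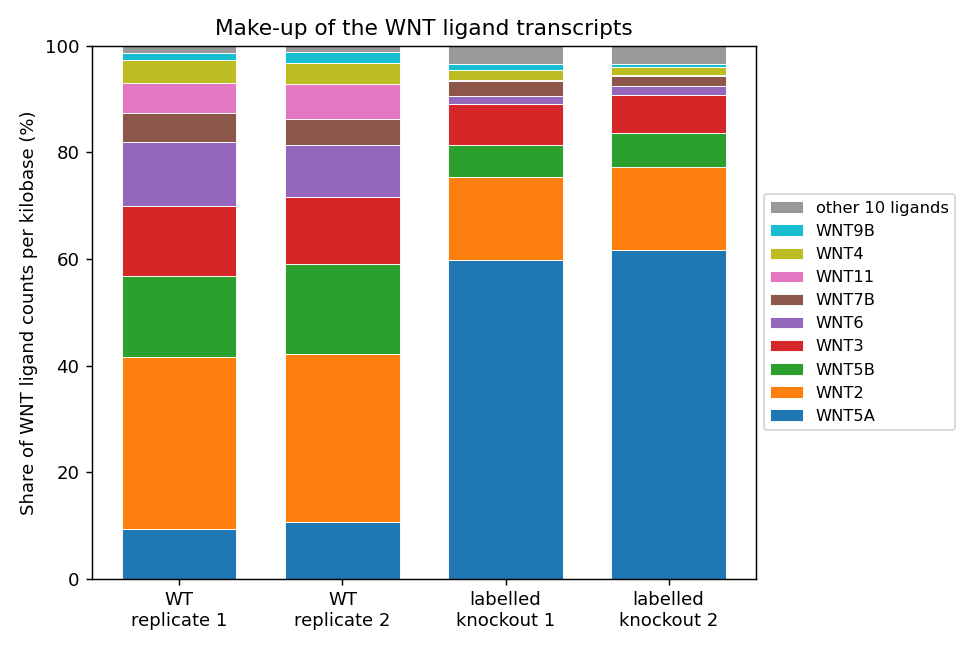
Share of the summed WNT ligand counts per kilobase of transcript taken by each ligand, in percent, as a stacked bar for each of the 4 libraries, with 10 ligands of low level joined in grey. WNT2 is the broadest segment in both WT libraries, at 32.2% and 31.5%, and WNT5A in both labelled-knockout libraries, at 59.7% and 61.7%.

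Over the 13 receptor and co-receptor genes tested the log2 fold changes ran from -0.62 to 1.12, with a median of 0.26. Of these, 6 were higher (46.2%; background 21.9% of all genes tested) and 2 lower (15.4%; background 22.3%). FZD2 (chr17:42634812-42638630) and FZD7 (chr2:202899310-202903160), close relatives that bind many WNTs, were the Frizzled genes with the highest levels per kilobase. FZD2 was at 119 and 108 CPM in WT and at 191 and 212 CPM in the labelled-knockout libraries, 1.78-fold higher (adjusted p = 2.79e-07). FZD7 was at 112 and 102 against 161 and 167 CPM, 1.54-fold higher (adjusted p = 9.30e-07). Neither gene overlaps between genotypes. FZD3, a receptor of the planar polarity branch, was at 56.1 and 60.8 against 89.2 and 76.3 CPM (1.41-fold higher, adjusted p = 0.000201).

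Of the co-receptors of the beta-catenin branch LRP6 rose by a small amount. LRP6 was at 105 and 109 against 133 and 123 CPM (1.198-fold higher, adjusted p = 0.00227), and LRP5 did not pass at 145 and 144 against 154 and 157 CPM (adjusted p = 0.0944). The WNT5A receptors with tyrosine kinase-like domains went the other way from their ligand. ROR1 was at 83.5 and 77.8 CPM in WT and at 53.2 and 51.7 CPM, 1.54-fold lower (adjusted p = 2.85e-06). ROR2 was at 133 and 134 against 91.9 and 106 CPM, 1.35-fold lower (adjusted p = 0.000107). In both genes each labelled-knockout library lay below each WT library.

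The calls for FZD8 and FZD9 were lost in several alternatives. FZD8 was at 21.6 and 22.002 against 32.2 and 24.6 CPM (log2 fold change 0.38, adjusted p = 0.0232). Its call was lost without WT replicate 1 (adjusted p = 0.108) or WT replicate 2 (0.0808), at log2 fold changes of 0.36 and 0.39. It was also lost without knockout replicate 1 (adjusted p = 0.221), where the log2 fold change was 0.18. FZD9, at 0.391 and 0.624 against 1.02 and 1.21 CPM (log2 fold change 1.12, adjusted p = 0.0375), lost its call when any library was left out, with adjusted p from 0.0587 to 0.243, with DESeq2 (0.263) and with a replicate block (0.0572). FZD1, FZD4, FZD5 and FZD6 did not pass, with log2 fold changes from -0.10 to 0.27, and FZD10 was not tested.

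Of the 9 secreted antagonists tested, 5 fell (55.6%; background 22.3% of all genes tested) and 2 rose (22.2%, near the background of 21.9%). The antagonists with the largest falls were WIF1, DKK1 and DKK2, while SFRP1 and FRZB rose. DKK1 (chr10:54074041-54077417), which blocks LRP5 and LRP6 and is itself a known target of beta-catenin, was at 14.99 and 11.5 CPM in WT and at 1.46 and 0.917 CPM in the labelled-knockout libraries, 11.3-fold lower (adjusted p = 2.46e-08). DKK2, at 8.75 and 9.78 against 0.947 and 1.05 CPM, was 9.27-fold lower (adjusted p = 1.95e-08). WIF1, which binds WNT ligands directly, had 55 counts in WT and 1 in the labelled-knockout libraries, a ratio of 64.0 with a 95% exact counting interval of 11.02 to 2574 (adjusted p = 2.03e-05).

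NOTUM, an enzyme that strips the lipid from WNTs, was at 4.73 and 3.66 against 0.999 and 1.72 CPM (2.97-fold lower, adjusted p = 0.000289). DKK3, a divergent family member, was at 25.2 and 24.4 against 14.6 and 15.7 CPM (1.64-fold lower, adjusted p = 3.97e-05). Both lacked overlap between genotypes.

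The SFRP genes encode decoys that carry a Frizzled-like binding domain. SFRP1 had the highest level per kilobase of all members, 306 ± 28.9 CPM per kilobase in WT and 632 ± 96.7 in the labelled-knockout libraries (SD, n = 2). It was at 1468 and 1285 CPM in WT and at 2530 and 3144 CPM in the labelled-knockout libraries, 2.06-fold higher (adjusted p = 0.00201), or 0.146% and 0.127% against 0.256% and 0.315% of all counts. FRZB was at 14.5 and 9.72 against 29.01 and 23.4 CPM, 2.15-fold higher (adjusted p = 0.00290). SFRP2 stood at 21.9 and 20.9 CPM in WT and at 14.3 and 6.39 CPM in the labelled-knockout libraries, which differed from each other by more than the WT libraries did. It did not pass (log2 fold change -1.06, SE 0.48, adjusted p = 0.208), but passed without knockout replicate 1 (adjusted p = 1.57e-06, log2 fold change -1.74) or replicate 2 (0.00367, -0.58), with limma-voom (0.00487) and with a replicate block (0.0302). SFRP5 did not pass, at 9.06 and 7.14 against 5.97 and 6.94 CPM (adjusted p = 0.134).

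In the R-spondin axis, secreted R-spondins bind LGR4, LGR5 or LGR6 and draw off RNF43 and ZNRF3, ubiquitin ligases that remove Frizzled receptors from the cell surface. Both ligase genes, which are also feedback targets of the pathway, fell, and LGR4 rose. RNF43 was at 35.3 and 38.6 CPM in WT and at 14.7 and 15.5 CPM in the labelled-knockout libraries, 2.44-fold lower (adjusted p = 4.35e-08). ZNRF3 was at 67.6 and 68.8 against 47.0 and 42.5 CPM, 1.53-fold lower (adjusted p = 6.82e-06). LGR4 (chr11:27387508-27494334) was at 33.9 and 31.6 against 97.6 and 78.2 CPM, 2.68-fold higher (adjusted p = 3.23e-06). For these 3 genes the genotypes do not overlap, and LGR5 and LGR6 were at 0.344 CPM or less in every library.

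The R-spondin genes themselves went different ways. RSPO1 had 90 counts in WT and 4 in the labelled-knockout libraries, or 2.88 and 2.18 against 0.102 and 0.0917 CPM (24.6-fold lower, adjusted p = 1.96e-06). RSPO3, the R-spondin gene with the highest level per kilobase in WT, was at 38.2 and 36.9 against 29.4 and 20.8 CPM (log2 fold change -0.59, adjusted p = 0.0174). The call for RSPO3 was lost without WT replicate 2 (adjusted p = 0.0544), and its log2 fold change was -0.35 without knockout replicate 2. RSPO2 was at 1.79 and 1.02 against 2.41 and 3.16 CPM (log2 fold change 0.99, adjusted p = 0.0140). That call was lost with DESeq2 (adjusted p = 0.105) and without WT replicate 2 (0.150, log2 fold change 0.64) or knockout replicate 2 (0.140). RSPO4 overlapped between genotypes, at 34.0 and 29.5 against 26.9 and 34.7 CPM (adjusted p = 0.820).

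Among transducers and feedback targets 7 of 10 fell (70%; background 22.3% of all genes tested), and the other 3 did not pass. NKD1 (chr16:50582241-50674771), a feedback inhibitor that acts on dishevelled and is induced by beta-catenin, had the smallest adjusted p of all members. It was at 103 and 102 CPM in WT and at 13.9 and 14.2 CPM in the labelled-knockout libraries, 7.32-fold lower (adjusted p = 1.20e-12), which on the log2 scale is -2.87 with an SE of 0.07. AXIN2 (chr17:63524683-63557740), the scaffold of the destruction complex most widely used as a readout of the pathway, was at 62.6 and 63.5 against 34.9 and 34.3 CPM, 1.82-fold lower (adjusted p = 1.16e-07). SP5, a transcription factor gene induced directly by beta-catenin, had 27.5 counts in WT and 1 in the labelled-knockout libraries, a ratio of 32.0 with a 95% exact counting interval of 5.39 to 1333 (adjusted p = 0.000479). All 3 are textbook targets. For each, the labelled-knockout libraries lie below the WT libraries, as they also do for NKD2, which did not pass.

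Beta-catenin and its DNA-binding partners differed by less. CTNNB1 (chr3:41240942-41281939), which encodes beta-catenin, was at 1093 and 1100.02 against 849.9 and 806 CPM, 1.32-fold lower (adjusted p = 1.80e-05). LEF1, both a partner and a target, was at 102 and 105 against 76.4 and 73.8 CPM, 1.38-fold lower (adjusted p = 1.46e-05). It overlaps the antisense gene LEF1-AS1 by 1432 bp, and reads of such a pair cannot be told apart unless counting used strand, which the sources do not state. LEF1-AS1 itself was at 8.16 CPM in WT and 6.03 CPM in the labelled-knockout libraries. RNF43 overlaps BZRAP1-AS1 (8.63 against 6.51 CPM) by 51 bp, and ROR1, ZNRF3 and SP5 overlap opposite-strand genes that were at 0.155 CPM or less. TCF7 was at 39.005 and 42.05 against 22.5 and 24.0 CPM, 1.74-fold lower (adjusted p = 2.04e-06). TCF7L1, mainly a repressor, was at 119 and 115 against 95.5 and 94.8 CPM, 1.23-fold lower (adjusted p = 0.000522).

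The paralogues of these genes did not all move with them. TCF7L2 was at 58.7 and 61.6 against 57.8 and 62.5 CPM (adjusted p = 0.996). AXIN1 was at 76.3 and 73.7 against 73.8 and 78.03 CPM (adjusted p = 0.842). Both overlap between genotypes. NKD2, at 8.58 and 8.02 against 6.04 and 6.97 CPM, did not pass (adjusted p = 0.0771). The difference between paralogues was not itself tested.

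**Figure D3:**
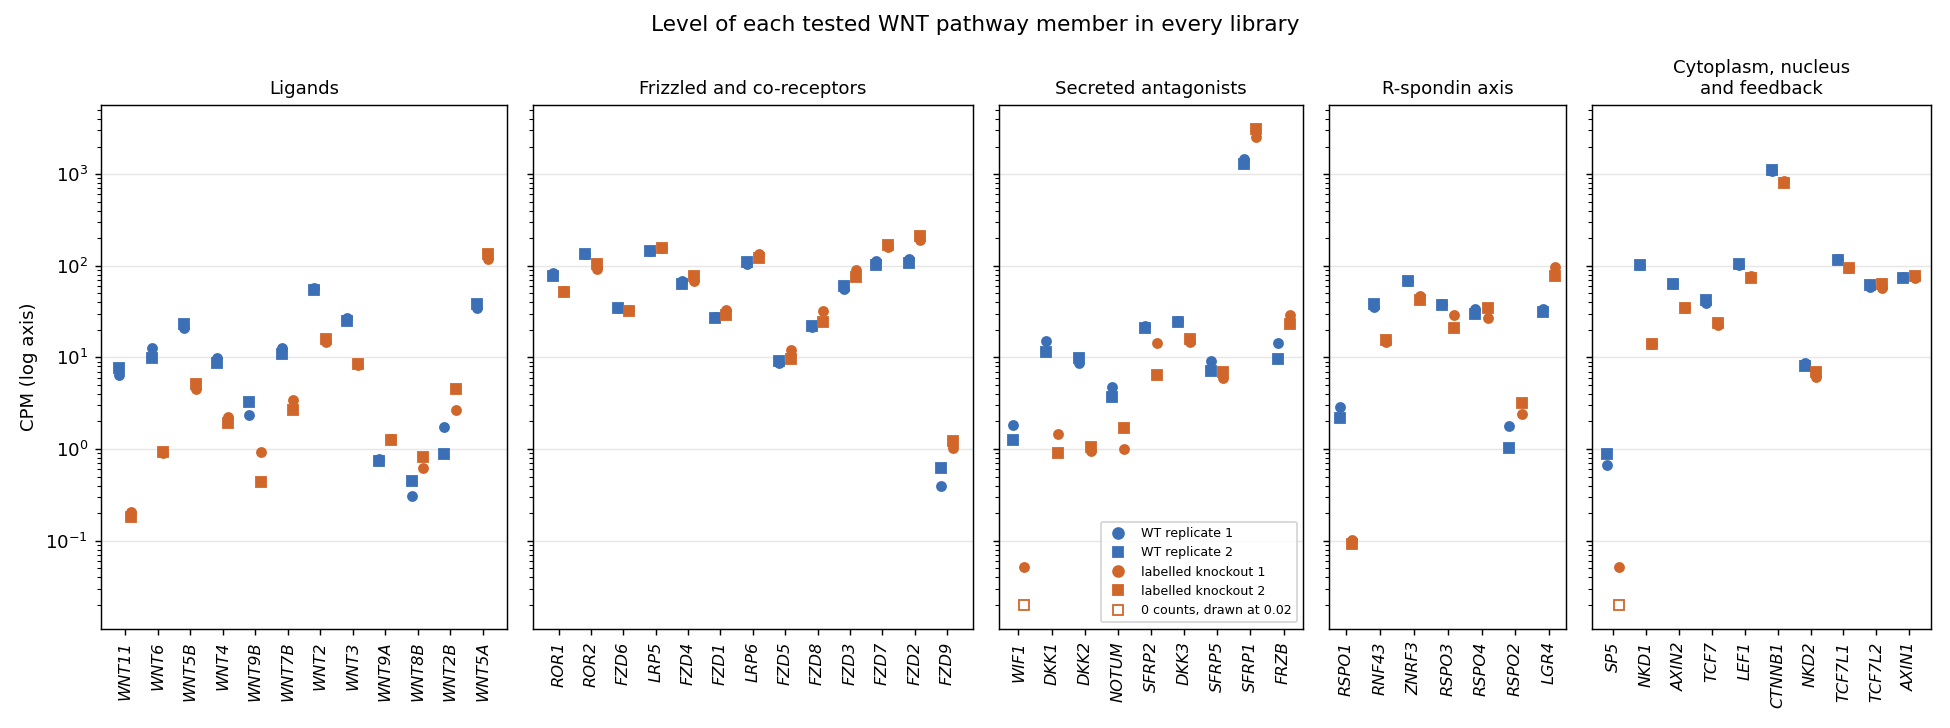
Level of each of the 51 tested members in each library in CPM on a log axis, by role, with WT in blue and the labelled-knockout libraries in orange, and open squares at the bottom for 0 counts. The members range from SFRP1, at 1285 CPM or more in every library, to WIF1 and SP5, which had 0 counts in labelled-knockout replicate 2.

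Another 98 genes of WNT signalling outside the family, in 6 lists, were all found in the table, and 84 were tested. In the labelled-knockout libraries 27 were lower (32.1%; background 22.3% of all genes tested) and 17 higher (20.2%; background 21.9%), with a median log2 fold change of -0.01. The share of higher genes is near that over all genes. Of the secretion genes 3 of 4 tested were lower. TRABD2B, a membrane protease that cleaves WNTs, was at 22.6 and 17.9 against 10.2 and 12.1 CPM (adjusted p = 0.000154). MESD, a chaperone of LRP5 and LRP6, was at 117 and 116 against 78.3 and 83.4 CPM (adjusted p = 4.65e-06). WLS, the carrier that brings WNTs to the cell surface, was at 205 and 208 against 168 and 176 CPM (adjusted p = 0.000769).

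Modulators at the cell surface split, with 7 lower (46.7%) and 5 higher (33.3%) of 15 tested. Over all genes tested the shares were 22.3% and 21.9%. APCDD1, a membrane inhibitor of WNT and a known target, was at 79.0 and 80.1 CPM in WT and at 15.3 CPM in both labelled-knockout libraries, 5.19-fold lower (adjusted p = 7.57e-12). The glypican GPC4, a heparan sulfate carrier that binds WNTs, was at 2.85 and 1.96 against 26.2 and 25.7 CPM, 10.8-fold higher (adjusted p = 3.97e-10). SOST, an inhibitor of LRP5 and LRP6, was at 1.71 and 1.67 against 0.819 and 0.527 CPM (adjusted p = 0.00655). Another glypican, GPC3, went the other way from GPC4, at 3081 and 3076 against 1341 and 1523 CPM (2.15-fold lower, adjusted p = 4.80e-09); it was chosen after its values were seen.

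Of 20 cytoplasmic transducers tested, 4 were lower (20%) and 5 higher (25%), shares near the background of 22.3% and 21.9%, and all but 1 differed by less than 2-fold. The exception was DACT1, a dishevelled antagonist, at 270.04 and 288 against 91.5 and 84.9 CPM (3.16-fold lower, adjusted p = 2.58e-11). Its paralogue DACT3 was at 97.1 and 84.1 against 119 and 129 CPM (1.37-fold higher, adjusted p = 0.000237). APC, a core of the destruction complex, was at 32.7 and 35.2 against 44.5 and 43.2 CPM (1.29-fold higher, adjusted p = 0.000828). Among 11 nuclear partners of beta-catenin 3 were lower (27.3%) and 2 higher (18.2%), none by 2-fold. These shares too are near the background. The corepressor gene TLE3 was at 235 and 248 CPM in WT and at 191 CPM in both labelled-knockout libraries (adjusted p = 9.54e-05). TLE1, which encodes a related corepressor, was at 64.5 and 65.4 against 49.1 and 54.9 CPM (adjusted p = 0.00209). HMGXB4 was higher, at 53.04 and 49.9 against 66.9 and 64.2 CPM (adjusted p = 0.000716). 

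In the planar polarity and other branches without beta-catenin 4 of 18 were lower (22.2%; background 22.3%) and 2 higher (11.1%; background 21.9%), all by less than 2-fold. NFATC1, a transcription factor gene of the calcium branch, was at 10.1 and 10.3 against 4.48 and 5.68 CPM (adjusted p = 0.000170). CELSR1, a polarity cadherin, was at 131 and 146 against 91.4 and 75.9 CPM (adjusted p = 0.000257). PTK7, a receptor-like partner of the polarity branch, was at 381 and 399.6 against 273 and 288 CPM (adjusted p = 3.76e-06). In these 3 genes the genotypes do not overlap.

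Textbook target genes outside the family did not move one way. Of 16 tested, 6 were lower (37.5%; background 22.3%), all at least 2-fold, and 3 were higher (18.8%; background 21.9%). CDX2, CDX1 and MSX1 had the largest falls, with log2 fold changes of -4.78, -3.56 and -3.66. CCND1, the cyclin D1 gene, rose, at 15.3 and 15.8 CPM in WT and 104 and 105 CPM in the labelled-knockout libraries, 6.70-fold higher (adjusted p = 1.73e-12). CCN4 was also higher, at 1.45 and 1.02 against 3.79 and 3.55 CPM (adjusted p = 0.000179). TNFRSF19, at 133 and 136 against 44.4 and 39.96 CPM, was 3.19-fold lower (adjusted p = 9.77e-11). CCND1, CCN4 and TNFRSF19 were named after their values were seen.

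**Figure D4:**
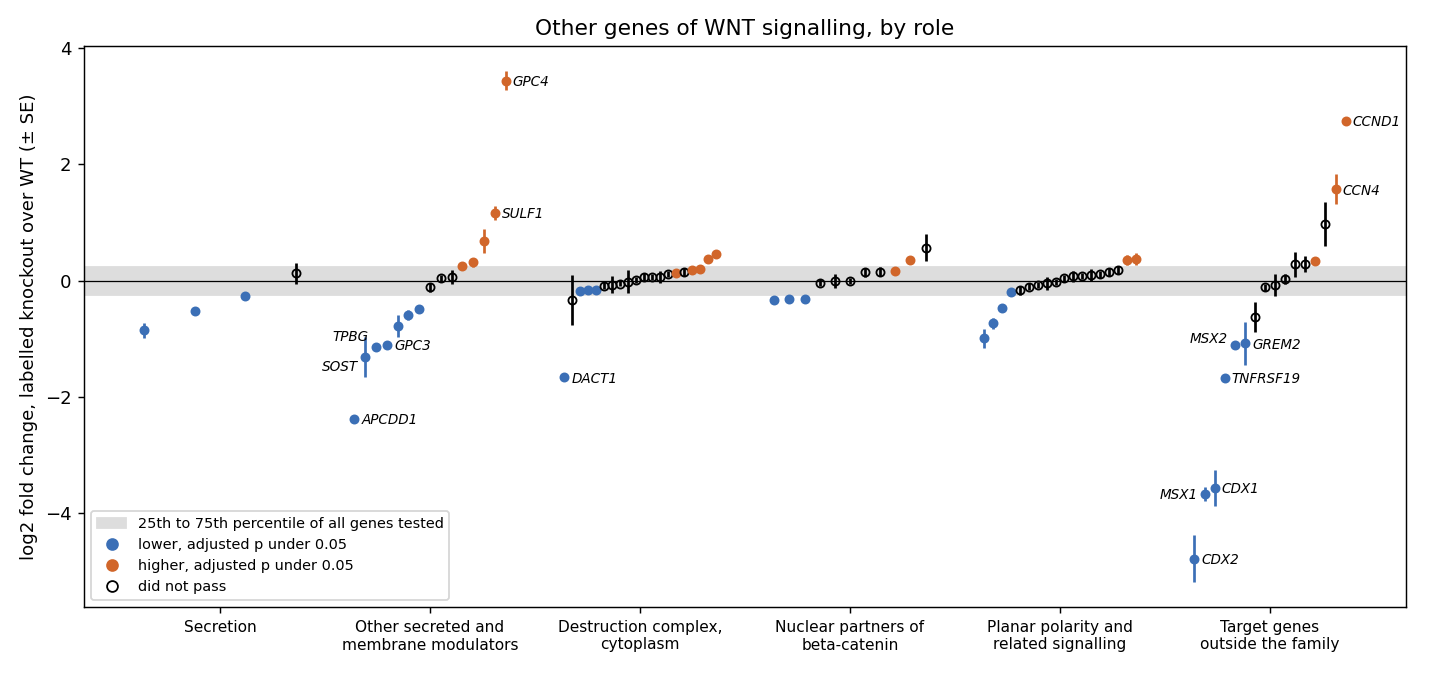
Log2 fold change of the 84 tested genes of the other WNT lists, labelled-knockout libraries over WT, with bars for the standard error and the 25th to 75th percentile of all genes tested as a band. Most transducers, nuclear partners and polarity genes lie within or near the band, and the points furthest from it are modulators and target genes, with CCND1 and GPC4 above and CDX2 below.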

How the data were processed

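The authors deposited 1 table of estimated counts per gene for 4 libraries, in 25690 rows, with no length column. The submitters' processing notes list TopHat, HOMER and DESeq2, with hg38 as build. The sources used here give no versions, annotation or use of strand. Of 23020 genes found in a GRCh38 annotation, 4.32% began within 2000 bp of their position there, and 16 rows lay on haplotype contigs named as in hg19, so gene coordinates are printed as hg19. All values were multiples of 0.5, 37.0% of them not whole, and were rounded for the count model. Genes were filtered with filterByExpr, scaled by TMM factors and tested with edgeR 4.0.16 (robust glmQLFit, glmQLFTest on genotype) in R 4.3.3. Adjustment was by Benjamini-Hochberg, at a threshold of 0.05. CPM use TMM-scaled library sizes. Means are given with their SD over 2 libraries. The SE of a log2 fold change is its size over the square root of F. The common biological coefficient of variation was 0.0577. Replicates differed by more than sampling noise (chi-square per degree of freedom 4.31 in WT and 4.16 in the labelled-knockout libraries). The test was also run on simulated libraries, drawn independently with a coefficient of variation of 0.0577 for every gene. Such data cannot show how it does where variation differs between genes or replicates are technical only.

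Levels per kilobase use the longest protein-coding transcript in GENCODE 29. Promoter sequences are from the RefSeq table of GRCh38.p14 and show the 250 bases before each start. MESD, CCN4 and TBXT were found under older symbols. A member was named with values if it was among the 8 of its role past the threshold with the largest change and at least 1 CPM, or, whatever its test, among the 2 of its role with the highest level per kilobase; CTNNB1, AXIN2, LEF1 and SP5 were named in any case. Values are also given, outside this rule, for LRP5, SFRP5, RSPO4, AXIN1, TCF7L2 and NKD2, which did not pass. Of the other lists up to 3 genes past the threshold were named. The members and lists were chosen with earlier results of these data known. Alternatives were DESeq2 size factors or upper quartile factors in edgeR, no count filter, DESeq2 1.42.0, limma-voom (limma 3.58.1), rounding down, a replicate block and leaving out each library. Where 1 library was left, it was assumed to vary like the other group.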

Additional observations from a re-analysis of the deposited data

How the results depend on the processing

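Over 11 alternatives, 33 of the 38 members called kept their direction and call in every one that tested them (SP5 did not pass the count filter without WT replicate 2), and WNT2B, RSPO2, FZD8, RSPO3 and FZD9 lost it in at least 1. FZD1, FZD4 and SFRP2 passed in at least 1. The number at least 2-fold higher was 6, and with a library left out it ranged from 3 to 6, being 3 without WT replicate 2 and 3 without knockout replicate 2. Other scalings moved the median of all genes by at most 0.0149 on the log2 scale. The DESeq2 test called 4929 genes in all against 6919 with edgeR. The replicate numbers pair nothing in the labels, and deviations of same-numbered libraries had a correlation of -0.0478. With the number as a replicate block, 27 members were lower and 11 higher, and 6204 genes were called in all. At this depth a member under about 3 counts per library cannot be told from 0.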
